A study of Rattus norvegicus with 6 samples.

Results

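The insulin-like growth factor (IGF) axis was followed in primary rat chondrocytes through 10 genes: the ligands Igf1 and Igf2, the receptors Igf1r and Igf2r, and the binding proteins Igfbp2, Igfbp3, Igfbp4, Igfbp5, Igfbp6 and Igfbp7. Members were taken by gene symbol, each matched 1 of the 18923 genes in the files, and all 10 were among the 13438 genes with enough reads to be tested. The cells came from newborn female Sprague-Dawley rats (WT), had been passaged in culture, and were kept in high-glucose DMEM with fetal bovine serum and penicillin-streptomycin. The 3 CON samples received nothing further for 24 h, and the 3 RA samples received 1 μM all-trans retinoic acid (RA), a vitamin A metabolite and ligand of nuclear receptors, for the same 24 h. The methods call the 3 samples of a group biologically independent and do not say whether each came from its own animal, so p-values measure the spread between these samples. The question was how RA changes gene expression in cartilage cells.

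IGFs drive growth of cartilage. Both ligands signal through IGF1R, a receptor tyrosine kinase that feeds the PI3K-AKT and ERK routes, whereas IGF2R, also the mannose 6-phosphate receptor, takes up IGF2 for lysosomal degradation. IGFBPs are secreted proteins that hold IGFs in the extracellular space, limit or prolong their access to the receptor, and release them when proteases cut the binding protein. Serum brings IGFs and IGFBPs of its own into the culture, and RNA-Seq measures only the transcripts made by the cells.

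Total counts ran from 29370025 to 38007486 per sample. The treatment was visible in the retinoid response genes, of which 6 of 8 were DEGs, all higher in RA, beside 4.96% of all tested genes. Crabp2 (log2 fold change 0.40, adjusted p = 0.0859, edgeR) and Stra6 (-0.44, adjusted p = 0.495, edgeR) were not DEGs. Cyp26a1, the RA hydroxylase, had a log2 fold change of 3.35, and Rarb, a retinoic acid receptor, of 1.43. Rarb was low, at 34, 21 and 15 reads in CON and 51, 48 and 79 in RA, and only just passed (adjusted p = 0.0493, edgeR). Cartilage markers were high in both groups, at a summed 7949 to 9881 FPKM over 10 genes in CON and 5022 to 5350 in RA. Endothelial genes summed to at most 8.03 FPKM, nearly all of it Egfl7, and macrophage genes to at most 17.9, most of it Cd14. CON sample 1 stood somewhat apart, at a root mean square distance of 0.459 and 0.490 (log2 CPM) from the other CON samples, which were 0.336 from each other. The RA samples were 0.355 to 0.358 apart.

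RA split the axis. Transcripts of Igfbp3 and Igfbp4 rose, the transcript of Igf2 fell, and the other 7 members were not DEGs. A DEG had a Benjamini-Hochberg adjusted p below 0.05 in edgeR's quasi-likelihood test over all genes and a log2 fold change beyond 0.58. The 3 DEGs among 10 members stood beside 4.96% of all tested genes, with 2 members higher (2.67% of all genes) and 1 lower (2.29%). The members were chosen with earlier results of these data known, so these shares are not a test. By adjusted p alone, 4 of the 10 members passed, beside 9.82% of all genes, the fourth being Igfbp7. The median log2 fold change of the members was 0.17, and that of all tested genes was -0.0057.

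Since the 2 genes that rose are both binding proteins, the 250 bases upstream of their annotated starts are shown. The sequences are from RefSeq on GRCr8, 5′ to 3′ on the strand of the gene. Igfbp3 is on the minus strand at chr14:86277945-86278194, and Igfbp4 on the plus strand at chr10:84491221-84491470. Capitals mark a TATA-type element, TATATA in Igfbp3 and TATAAA in Igfbp4, beginning 46 and 40 bases before the start.
Igfbp3: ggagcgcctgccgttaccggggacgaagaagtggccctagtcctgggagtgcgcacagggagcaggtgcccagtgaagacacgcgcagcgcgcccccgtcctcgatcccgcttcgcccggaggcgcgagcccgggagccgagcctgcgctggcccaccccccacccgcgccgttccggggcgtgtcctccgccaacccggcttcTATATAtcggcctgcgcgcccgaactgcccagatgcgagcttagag
Igfbp4: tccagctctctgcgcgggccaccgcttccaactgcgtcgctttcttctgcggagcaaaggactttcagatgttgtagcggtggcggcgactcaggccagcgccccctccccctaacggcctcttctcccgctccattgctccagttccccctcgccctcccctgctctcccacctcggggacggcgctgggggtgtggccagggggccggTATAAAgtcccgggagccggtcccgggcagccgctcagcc

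The share of G and C was 71.6% for Igfbp3 and 68.8% for Igfbp4, within the range of the members' windows, which ran from 46.8% for Igf1 to 79.6% for Igf1r. Windows of this length were searched on both strands for the TATA element TATAAA and for the GC box bound by Sp1, GGGCGG. The hexamer AGGTCA, to which retinoic acid receptors bind, and its variant AGTTCA were searched as well. TATATA was added after the sequence of Igfbp3 was seen. RefSeq gave 11 windows for the 10 members, since Igf2 has a pair of annotated starts. TATAAA was found in 1 of the 11, that of Igfbp4, and in 12.9% of all 33469 windows. TATATA was in 1 of the 11, that of Igfbp3, and in 5.45% of all. Only exact spellings were counted. The downstream window of Igf2, a gene that fell, holds the similar CATAAA, which was not searched. GGGCGG was found in 5 of the 11, those of Igf1r, Igf2r, Igfbp2, Igfbp7 and the downstream start of Igf2, and in 30.5% of all. AGGTCA and AGTTCA were in 0 of the 11 windows, beside 14.1% and 12.2% of all. Such hexamers, with GGGTCA and with GGTTCA as further spellings, in pairs of one orientation and 1, 2 or 5 bases apart, were in 0 of the 11 and in 0.651% of all. Binding was not measured in this study.

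**Figure D1:**
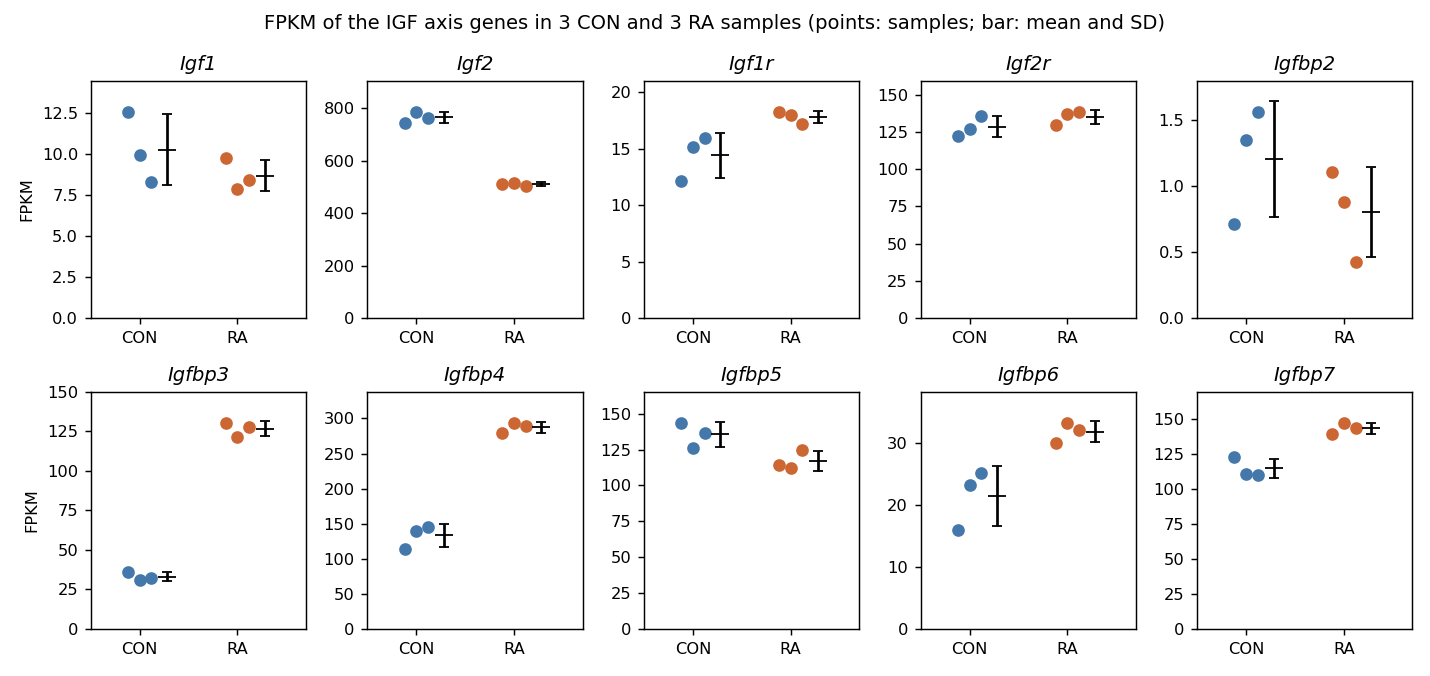
FPKM of each IGF axis gene (vertical axes, starting at 0) in the 3 CON samples (blue points) and the 3 RA samples (orange points), with the mean and SD of each group as a black bar. The groups are far apart for Igfbp3 (31.0 to 36.2 against 122 to 130.5 FPKM), Igfbp4 and Igf2, and overlap for Igf1, Igf2r and Igfbp2.

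Igf2 (ENSRNOG00000020369), the fetal growth factor of the axis and an imprinted gene, was by far the most abundant member. Its FPKM, the read count scaled by gene length and by the total of the sample, came to 744, 785 and 763 in CON and to 512, 516 and 502 in RA. Every RA sample was below every CON sample. The log2 fold change was -0.59 (standard error 0.0433, 95% confidence interval -0.69 to -0.50, adjusted p = 1.13e-04, edgeR), or 0.662-fold. Igf2 was only just past the fold-change threshold of 0.58, with an interval that reached to both sides of it. It ranked 78th in CON and 124th in RA among the 13438 tested genes by mean FPKM.

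Igf1 (ENSRNOG00000004517), the growth hormone-induced ligand, was expressed at a far lower level. It measured 12.6, 9.95 and 8.31 FPKM in CON and 9.76, 7.89 and 8.43 in RA, and the groups overlapped. The log2 fold change of -0.25 had a 95% confidence interval of -0.60 to 0.092 (adjusted p = 0.351, edgeR). A fall as large as that of Igf2 was at the edge of this interval. The value was -0.084 without CON sample 1, the highest of the 6, and -0.38 without CON sample 3, the lowest of its group. Per length, the Igf2 transcript exceeded that of Igf1 by 76.6 ± 16.4 times in CON and 59.2 ± 6.51 times in RA (SD, n = 3 each).

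The receptors moved little. Igf2r (ENSRNOG00000014997) was the more abundant, with 123, 127 and 136 FPKM in CON and 129.8, 137 and 138 in RA. These ranges overlapped, and the log2 fold change was 0.057 (95% confidence interval -0.084 to 0.20, adjusted p = 0.618, edgeR), which bounds any change of this transcript more narrowly than for most members. Igf1r (ENSRNOG00000014187) measured 12.1, 15.1 and 15.9 FPKM in CON and 18.3, 18.0 and 17.2 in RA. All RA samples lay above all CON samples, yet the log2 fold change of 0.29 (95% confidence interval 0.057 to 0.53) did not pass the test over all genes (adjusted p = 0.127, edgeR). It was 0.18 without CON sample 1, the lowest, and 0.38 without CON sample 3, and in these fits the adjusted p was 0.0464 and 0.0499 (edgeR), with the fold change still under the threshold. Igf2r exceeded Igf1r by 9.01 ± 0.932 times in CON and 7.58 ± 0.462 times in RA (SD, n = 3 each), and Igf2 exceeded Igf2r by 5.95 ± 0.299 and 3.78 ± 0.158 times.

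Among the binding proteins, Igfbp3 (ENSRNOG00000061910), which encodes the main IGF carrier of the circulation, changed most. Its FPKM was 36.2, 31.0 and 32.2 in CON and 130.5, 122 and 128 in RA. The lowest RA sample was thus well over the highest CON sample, and the spread within each group was small beside the gap. The log2 fold change was 1.92 (standard error 0.0738, 95% confidence interval 1.75 to 2.09, adjusted p = 7.70e-06, edgeR), or 3.79-fold. By p-value Igfbp3 ranked 5th, and by log2 fold change 66th, of the 13438 genes.

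Igfbp4 (ENSRNOG00000010635), best known as an inhibitor of IGF action, was 114, 140.0 and 145 FPKM in CON and 279, 294 and 289 in RA. The groups did not overlap, with CON sample 1 the lowest of all. The log2 fold change was 1.10 (standard error 0.0941, 95% confidence interval 0.88 to 1.31, adjusted p = 2.37e-04, edgeR), or 2.14-fold. Without CON sample 1 it was 0.99 and Igfbp4 was still a DEG. In absolute FPKM the gain of Igfbp4 was the larger, since it started from 133 ± 16.7 and reached 287 ± 7.81, whereas Igfbp3 went from 33.1 ± 2.73 to 127 ± 4.58 (SD, n = 3 each).

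The remaining binding proteins were not DEGs. Igfbp7 (ENSRNOG00000002050), which binds IGFs only weakly, measured 122, 111 and 110.1 FPKM in CON and 139, 147 and 143 in RA. Its groups did not overlap and its adjusted p passed (0.0185, edgeR), but the log2 fold change of 0.31 (95% confidence interval 0.16 to 0.46) stayed under 0.58. The adjusted p passed without CON sample 1 (4.61e-04) or CON sample 3 (0.0452), and not without any other sample (up to 0.111 in edgeR). Igfbp6 (ENSRNOG00000010977), the binding protein that prefers IGF2, had 15.9, 23.2 and 25.3 FPKM in CON and 30.1, 33.3 and 32.2 in RA. All RA samples were above all CON samples, with a log2 fold change of 0.55 (95% confidence interval 0.19 to 0.92, adjusted p = 0.0652, edgeR). This value followed single CON samples: it was 0.38 without CON sample 1, and 0.70 and a DEG without CON sample 3 (adjusted p = 0.0254, edgeR, with 0.00371 to 0.209 over the alternatives).

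Igfbp5 (ENSRNOG00000017206), a binding protein that adheres to extracellular matrix, went the other way, from 144, 126 and 137 FPKM in CON to 114, 112 and 125 in RA. Its groups came close and did not overlap, and the log2 fold change of -0.22 (95% confidence interval -0.38 to -0.065) did not pass (adjusted p = 0.0883, edgeR). The adjusted p was 0.0457 without CON sample 1 and between 0.0819 and 0.304 without any other sample. Igfbp2 (ENSRNOG00000016957), a binding protein of fetal tissues, was barely expressed, with 28, 52 and 76 reads in CON and 42, 33 and 17 in RA. In FPKM this was 0.712, 1.35 and 1.56 against 1.11, 0.878 and 0.429. The groups overlapped, and the log2 fold change of -0.61 had a 95% confidence interval of -1.54 to 0.32 (adjusted p = 0.403, edgeR), so that neither a fall nor a modest rise could be told from no change. The value was -0.31 without RA sample 3, the lowest, -0.36 without CON sample 3 and -0.90 without RA sample 1.

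**Figure D2:**
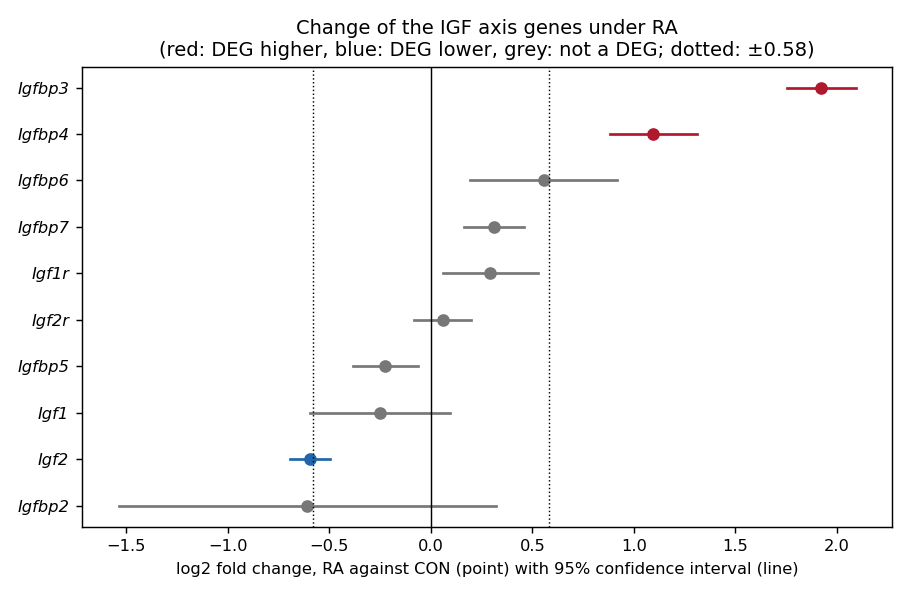
Log2 fold change of RA against CON (horizontal axis) for the 10 IGF axis genes, each a point with its 95% confidence interval, ordered by value, with dotted lines at the threshold of 0.58 in either direction. Igfbp3 (1.92) and Igfbp4 (1.10) are clear of the threshold, the interval of Igf2 (-0.69 to -0.50) spans it, and that of Igfbp2 (-1.54 to 0.32) is the widest.

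In all, 7 of the 10 members had groups that did not overlap, 5 higher and 2 lower in RA, beside 31.9% of all tested genes. The 3 with overlap were Igf1, Igf2r and Igfbp2. Without CON sample 1, with each other sample left out in turn, and under the other alternatives run, Igfbp3, Igfbp4 and Igf2 were DEGs in all 16 alternatives. Igf2 came as near to the threshold as -0.58. Of the other members, only Igfbp6 without CON sample 3 and, by adjusted p alone, Igfbp7 gained a call.

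The order of the levels changed along with these genes. In CON, Igf2 (764 ± 20.3 FPKM) was followed by Igfbp5 (136 ± 8.75), Igfbp4 (133 ± 16.7) and Igf2r (129 ± 6.81), 3 genes whose ranges overlapped in that order, and then by Igfbp7 (114 ± 6.92), each as mean ± SD, n = 3. Igfbp3, Igfbp6, Igf1r, Igf1 and Igfbp2 came below, of which only Igf1r and Igf1 overlapped as neighbours, though the lowest Igfbp6 and the highest Igf1r value were both 15.9. In RA, Igfbp4 stood alone in second place, under Igf2 (510.4 ± 7.16 FPKM, SD, n = 3). Igfbp7, Igf2r, Igfbp3 and Igfbp5 came next, with overlap between Igf2r and Igfbp3 and between Igfbp3 and Igfbp5. Igfbp3 thus came to overlap Igf2r and stayed below Igfbp7 in both groups.

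The summed FPKM of the 6 binding protein genes was 433, 433 and 451 in CON and 694, 709 and 718 in RA, a ratio of 1.61 between the means. Igfbp5 made up 30.9 ± 2.05% of that sum in CON and 16.6 ± 0.775% in RA, Igfbp7 26.1 ± 1.97% and 20.2 ± 0.425%, and Igfbp6 4.88 ± 1.05% and 4.51 ± 0.183% (SD, n = 3 each). The share of Igfbp3 went from 7.55 ± 0.699% to 17.9 ± 0.837%, and that of Igfbp4 from 30.3 ± 3.42% to 40.6 ± 0.703% (SD, n = 3 each). Igfbp3 and Igfbp4 together were 37.9 ± 2.72% of binding protein transcripts in CON and 58.6 ± 0.436% in RA. The ratio of ligand transcripts, Igf1 plus Igf2, to binding protein transcripts was 1.75, 1.84 and 1.71 in CON and 0.753, 0.739 and 0.712 in RA. Ligand transcripts thus outnumbered binding protein transcripts per length in each CON sample and were outnumbered in each RA sample. These sums follow from the members' own changes and were not tested, and transcripts do not give the amounts of secreted protein.

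**Figure D3:**
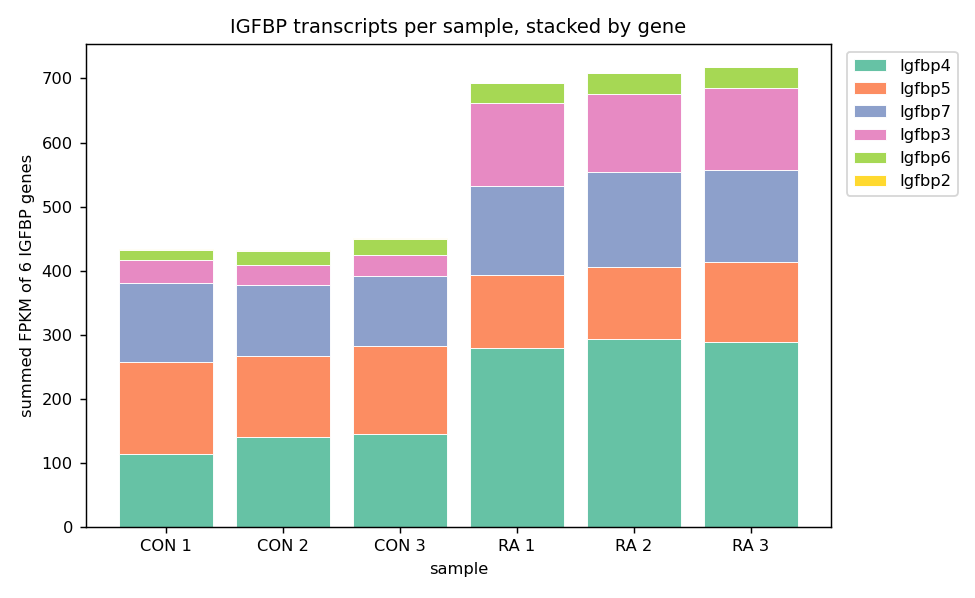
Summed FPKM of the 6 IGFBP genes (vertical axis, starting at 0) in each of the 6 samples, stacked by gene. The bars reach 433 to 451 in CON and 694 to 718 in RA, and the added height lies mostly in the Igfbp4 and Igfbp3 segments, while Igfbp2 is too low to be visible.

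Further genes of the pathway were read from 6 lists holding 69 genes, of which 63 were tested. DEGs numbered 8, 4 higher and 4 lower in RA, or 12.7% of the 63 beside 4.96% of all genes. The lists were chosen with earlier results of these data known, so the difference in share is not a test. By adjusted p alone 15 passed, 6 higher and 9 lower, beside 9.82% of all genes. The same shares of all genes stand beside the counts of the single lists. Their median log2 fold change was -0.025. On the ligand and receptor side, 2 of 5 tested genes were DEGs. Ghr, the growth hormone receptor, lay between 5.88 and 8.12 FPKM in CON and measured 4.78, 4.13 and 4.02 in RA, all RA samples being lower. On the log2 scale it fell by 0.71 (adjusted p = 0.00961, edgeR), and the fold change was -0.68 and -0.66 without RA sample 2 or RA sample 3, where it was not a DEG (adjusted p = 0.0554 and 0.0581). Cd93, which encodes an endothelial receptor that binds IGFBP7, was a DEG (log2 fold change 1.61) although hardly expressed. Its mean went from 0.105 ± 0.00618 to 0.323 ± 0.0644 FPKM (SD, n = 3 each). Insr, the insulin receptor, passed by adjusted p (0.0259, edgeR) at a log2 fold change of -0.28, under the fold-change threshold. Igfbp1, the binding protein of liver, had no match among the symbols used here.

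Of 6 genes of IGFBP proteases and their inhibitors, 2 were DEGs. Htra1, a secreted serine protease that cleaves IGFBPs among other matrix proteins, was abundant, at 285, 296 and 313 FPKM in CON and 469, 483 and 491 in RA. The groups were far apart, by 0.68 on the log2 scale with a standard error of 0.0590 (adjusted p = 2.56e-04, edgeR), and Htra1 stayed a DEG whichever sample was omitted. Pappa2, a metalloprotease that cuts IGFBP3 and IGFBP5, was low and went from 0.220 ± 0.0231 to 0.104 ± 0.0150 FPKM (SD, n = 3 each). Its log2 fold change of -1.09 (adjusted p = 0.0166, edgeR) rested on most samples being present: it held when CON sample 1 (-1.16) or RA sample 2 (-1.20) was omitted. It was lost on omitting CON samples 2 (-1.12) or 3 (-0.99), or RA samples 1 (-1.10) or 3 (-0.99). Pappa, the protease of IGFBP4, listed in the files as Pappa1, averaged 23.0 ± 0.592 FPKM in CON and 20.1 ± 0.459 FPKM in RA (SD, n = 3 each) and did not pass (log2 fold change -0.21, adjusted p = 0.0614, edgeR).

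Of 4 tested genes tied to Igf2 by RNA binding or imprinting, 1 was a DEG. Plagl1, an imprinted zinc finger transcription factor, measured 157, 149.6 and 161 FPKM in CON and 71.7, 85.3 and 77.6 in RA. All RA samples were far below all CON samples, the log2 fold change being -1.01 with a standard error of 0.0764 (adjusted p = 1.32e-04, edgeR), whichever sample was omitted still a DEG. Igf2bp2, an Igf2 mRNA-binding protein, did not pass (log2 fold change 0.15, adjusted p = 0.272, edgeR). H19, the imprinted neighbour of Igf2, had no match among the symbols used here.

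Downstream of the receptors, 1 of 30 signal transduction genes was a DEG, the p85α subunit gene Pik3r1, whose mean went from 11.9 ± 0.957 to 22.4 ± 0.527 FPKM (SD, n = 3 each). By adjusted p alone 5 of the 30 passed, 2 higher and 3 lower, beside 9.82% of all genes. Irs1 and Irs2, the docking proteins of the receptor, had log2 fold changes of -0.058 (adjusted p = 0.802) and -0.16 (adjusted p = 0.406, edgeR). The median of the 30 genes was -0.061. FOXO target genes, which AKT signalling holds down, gave 2 DEGs of 12 in opposite directions. Gadd45a, a growth arrest gene, had a log2 fold change of 0.66, and Pik3ip1, an inhibitor of PI3K, of -0.72. Pik3ip1 lost its call, at -0.69 each time, on omitting CON sample 2 or RA samples 1 or 2. The 6 growth hormone signal genes held 0 DEGs, and 3 of these had an unadjusted p under 0.05 in edgeR, beside 24% of all tested genes.

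**Figure D4:**
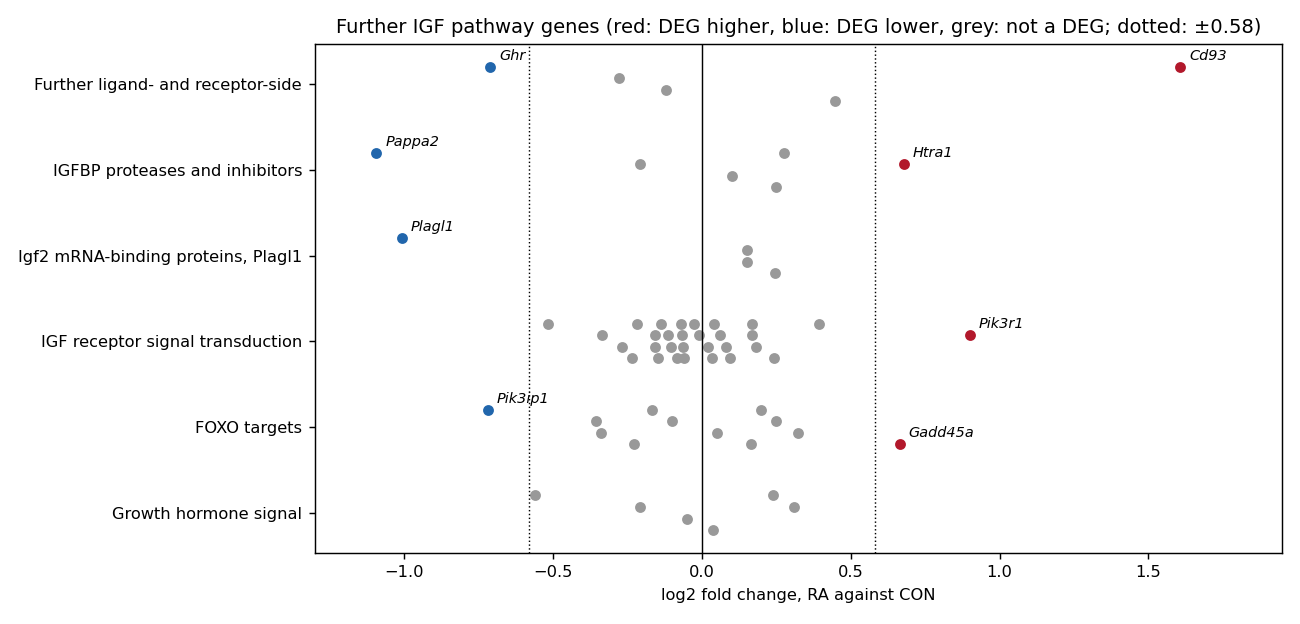
Log2 fold change of RA against CON (horizontal axis) for the 63 tested genes of the 6 further IGF pathway lists (rows), with DEGs coloured and named and dotted lines at 0.58 in either direction. Most points lie between the lines, and the 8 DEGs are spread over 5 of the 6 lists.

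The genes whose log2 CPM followed the DEG members most closely over the 6 samples were searched among 11332 genes with a mean FPKM of at least 1. For Igf2 they were Col9a1, a cartilage collagen (Pearson's r = 0.9996), and Sft2d2 (0.9985). For Igfbp3 they were Axin2, a feedback gene of Wnt signalling (0.9996), and Epb41l3 (0.9991), and for Igfbp4 they were Fbxo44 (0.9991) and Tnfrsf12a (0.9983). These r values describe 2 groups of 3 samples, and are high for any gene that separates the groups in proportion. Col9a1 had a log2 fold change of -0.86 and Axin2 of 1.28.

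Markers of cell types were set beside these changes, and their counts stand beside 4.96% of all tested genes for DEGs, 9.82% by adjusted p alone and 31.9% for groups without overlap. All 10 chondrocyte markers were lower in every RA sample, and 9 were DEGs. The decrease of Igf2 thus went along with lower chondrocyte markers, and in bulk RNA, fewer cells of a type and less RNA per cell cannot be told apart. Of 9 tested fibroblast and perichondrium markers 1 was a DEG, Postn, which was lower, and 4 passed by adjusted p, with Dcn also lower and Pdgfra (log2 fold change 0.44) and Twist1 (0.43) higher. Groups did not overlap for 5 of the 9, 3 higher and 2 lower. The summed FPKM of that list was 3993 to 5108 in CON and 5023 to 5260 in RA. Skeletal muscle genes summed to 9.23 to 10.9 FPKM in CON and 8.93 to 10.9 in RA, with 2 DEGs in opposite directions among 3 tested genes, Myod1 (log2 fold change 1.93) and Tnnt3 (-1.004). Myod1 was hardly expressed, at 7, 4 and 7 reads in CON and 25, 22 and 17 in RA. Smooth muscle genes summed to 534 to 603 FPKM in CON and 449 to 488 in RA, most of it Tagln, and 2 of 6 were DEGs, both lower. Groups did not overlap for 5 of the 6, 4 lower and 1 higher, the latter being Pdgfrb (log2 fold change 0.27, not a DEG). Of the hypertrophic and osteoblast genes, 2 of 7 tested were DEGs, Col10a1 and Ibsp, both higher in RA but low in level. Col10a1 had 18, 11 and 10 reads in CON and 45, 73 and 45 in RA, and Ibsp 40, 29 and 35 against 76, 79 and 113. Alpl passed by adjusted p in the other direction (log2 fold change -0.42), and Ihh did not pass (-1.63, adjusted p = 0.0669, edgeR), with all RA samples below all CON samples for both. The list summed to 21.5 to 25.9 FPKM in CON and 25.0 to 25.4 in RA. The part of these cell types in the changes of the IGF axis was not tested.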

How the data were processed

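Poly(A) RNA of 3 CON and 3 RA samples was sequenced on an Illumina HiSeq instrument from NEBNext Ultra libraries. Per the file headers, the authors deposited for each gene a whole-number count, without normalization, and an FPKM value, scaled by gene length and the sample's total count. The submitters' processing notes name HISAT2, HTSeq 0.13.5 and Rnor_6.0; the annotation and strand setting are not given in the sources used here, so reads of overlapping antisense genes cannot be told apart. Groups and numbers came from the sample titles. Counts were tested with edgeR 4.0.16 in R 4.3.3 (filterByExpr with a minimum count of 10, TMM, quasi-likelihood test, no covariates, Benjamini-Hochberg adjustment over 13438 genes). Standard errors were derived from the F statistic. FPKM served for levels. Promoter windows came from RefSeq GRCr8, matched by symbol, and no other coordinates of that build were used. The statistics were tested on simulated data. Alternatives used DESeq2 1.42.0, limma 3.58.1 and other scalings, filters and thresholds, and each sample left out in turn. The members and lists were chosen with earlier results of these data known. Genes named were the 10 members, every DEG of the pathway lists, Insr, Ghr, Igfbp1, Pappa, Htra1, Irs1, Irs2, H19, Igf2bp2, Cyp26a1 and Rarb, and the 2 genes most alike to each DEG member. Crabp2 and Stra6, and Cd14 and the other cell type markers named, were chosen after their values were seen. List symbols without a match in the files were looked up in RefSeq synonyms, which matched Pappa. Total counts between 29370025 and 38007486 per sample gave each member but Igfbp2 at least 446 reads in every sample, the lowest being Igf1.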

Additional observations from a re-analysis of the deposited data

How the results depend on the processing

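Igf2, Igfbp3 and Igfbp4 were DEGs with the same sign under all 16 alternatives. Over these, the log2 fold change of Igf2 ran from -0.62 to -0.58, that of Igfbp3 from 1.87 to 1.99 and that of Igfbp4 from 0.99 to 1.17. No member changed sign, and the number of DEGs among the members was 3 or 4. With limma on log2(FPKM + 1), 434 genes were DEGs in place of 667, and 5 further pathway genes in place of 8; by adjusted p alone the numbers were 1319 and 15, and by unadjusted p with the fold change 1017 genes were DEGs. With each sample left out in turn, 480 to 755 genes and 6 to 8 further pathway genes were DEGs. Whether same-numbered samples shared a cell preparation across groups is not stated. Correlations of their deviations were 0.093, -0.012 and 0.012, and those of differently numbered samples ran from -0.12 to 0.11. So few values cannot decide whether the samples were paired. With the replicate block 684 genes were DEGs, and the DEGs among the members were the same 3. By adjusted p alone Igfbp5 (0.0472) and Igfbp6 (0.0119, edgeR) also passed with the block. The ratio of summed IGFBP transcripts between RA and CON was 1.60 to 1.63 over rescaling and samples left out. Igfbp2 was tested with at most 76 reads per sample.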
